A study of Mus musculus with 8 samples.

Results

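Transcripts of 9 complement genes were followed through the cell types of lungs from mice exposed to cigarette smoke (CS) or room air (RA). They were chosen by name out of the 33,027 genes measured, with earlier results of these data known. The 9 genes are C1qa, C1qb, C1qc and C1s1 of the first complex, C4b and C3, the alternative pathway protease Cfb, and the regulators Serping1 and Cd55. All 9 were found in the files. Single-cell RNA was sequenced from 4 CS mice (C2, C5, D2 and D5) and 4 RA mice (F1, F3, M1 and M3), all C57BL/6 Sftpc-CreERT2-mTmG animals. In these mice tamoxifen, given to both groups at 8 to 10 weeks of age, switches on a green reporter in cells that express the surfactant gene Sftpc, mainly alveolar type 2 (AT2) cells, and the other cells carry a red reporter. Exposure to 3R4F cigarette smoke or to room air began 2 weeks later and lasted 10 months. Lung cells were separated on CD45, a surface protein of blood cells, and mixed at 10% CD45-positive to 90% CD45-negative cells, so the share of each cell type was set in part by this step.

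Complement is a cascade of plasma proteins that marks microbes and damaged cells. C1q binds to its target, and of its partner proteases C1r and C1s the latter then cuts C4 and C2. The resulting enzyme cuts C3, the protein on which all routes of the cascade meet. Factor B, the product of Cfb, forms the corresponding enzyme of the alternative route. C1 inhibitor (Serping1) removes active C1r and C1s, and decay-accelerating factor (Cd55) on the cell surface takes apart the enzymes that cut C3. The liver makes most plasma complement, and C1q comes mainly from macrophages and dendritic cells.

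The values use 40,074 of the 41,106 cells deposited, after leaving out 1,025 cells labelled as multiplets and 7 labelled as cell cycle, and cover 32 annotated types. Each mouse contributed 2,553 to 6,371 cells and 31,094,695 to 52,753,531 unique molecular identifiers (UMIs, one per captured molecule). A value is the mean, over the cells of a type in a mouse, of counts brought to 10,000 per cell, and n is the number of mice. In all 4 RA libraries sex-linked transcripts matched the labels, whereas in all 4 CS libraries they went against the labelled sex, and each group still held 2 mice of each sex. Among the cells, 394 carried a barcode sequence that was also found in another library. The type labelled M held 101 cells in all, between 3 and 29 a mouse. The interstitial macrophage markers Ms4a7, Folr2, Cd163, Apoe and Cx3cr1 and all 4 general macrophage markers were detected in it, and of 5 alveolar macrophage genes Marco, Siglecf and Krt79 were at 0, Chil3 was at 0.120 (2.97% of cells) and Ear2 at 0.109 (0.990%). Of the classical monocyte markers F13a1 was at 5.02 in 32.7% of the cells, Ccr2 at 0.914 in 16.8%, and Ly6c2 and Plac8 were below 0.1. These cells are called macrophages labelled M here, and the alveolar macrophages carry a separate label, AM.

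On the GRCm38 assembly the 3 C1q chain genes lie side by side on the minus strand of chromosome 4, C1qb at chr4:136880129-136886187, C1qc at chr4:136889804-136893065 and C1qa at chr4:136895917-136898803, in a stretch of 18,675 bases. C3 lies at chr17:57203970-57228136, C4b at chr17:34728380-34743882 and Cfb at chr17:34856374-34862518. C1s1 lies at chr6:124530345-124542359, Serping1 at chr2:84765387-84775444 and Cd55 at chr1:130439027-130462744, and all 9 genes are read from the minus strand. The 250 bases before the transcription start are shown for C1qb, as the example of the macrophage genes, and for C3 and C1s1, as the examples of the stromal ones. They come from RefSeq on GRCm38.p6, which had a promoter for 5 of the 9 members, and capitals mark the matches described next.
C1qb, chr4:136886201-136886450, minus strand: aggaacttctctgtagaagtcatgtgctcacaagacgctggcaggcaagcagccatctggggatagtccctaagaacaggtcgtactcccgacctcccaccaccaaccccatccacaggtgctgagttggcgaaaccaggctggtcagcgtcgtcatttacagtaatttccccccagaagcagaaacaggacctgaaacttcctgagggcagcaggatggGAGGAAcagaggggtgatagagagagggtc
C3, chr17:57228137-57228386, minus strand: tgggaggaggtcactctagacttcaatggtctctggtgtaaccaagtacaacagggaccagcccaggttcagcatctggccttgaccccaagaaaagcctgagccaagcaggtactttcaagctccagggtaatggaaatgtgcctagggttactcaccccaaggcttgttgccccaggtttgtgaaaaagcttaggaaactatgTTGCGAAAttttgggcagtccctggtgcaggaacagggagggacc
C1s1, chr6:124542360-124542609, minus strand: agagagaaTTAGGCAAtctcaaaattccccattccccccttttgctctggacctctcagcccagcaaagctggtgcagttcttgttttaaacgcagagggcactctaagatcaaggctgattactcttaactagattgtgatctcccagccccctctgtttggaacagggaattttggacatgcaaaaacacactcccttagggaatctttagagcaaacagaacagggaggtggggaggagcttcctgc
PU.1 is a transcription factor of myeloid cells, and its core GAGGAA, searched on both strands like all motifs here, began at position -30 from the start in C1qb. The window of C1qc, not shown, also held it. Among 32,851 promoters of the same length 23.3% did. TTGCNNAA, the letters of a C/EBP site, began at position -45 in C3 and at position -242 in C1s1, and 9.56% of promoters held it. No match overlapped another. The other motifs searched had no match in the 5 member windows. They were TATAAA (held by 12.4% of promoters), CCAAT (33.8%), the STAT letters TTCNNNGAA (7.02%), a part of the interferon response element (2.98%) and the E-box CACGTG (6.02%).

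The members differed in where they were highest. The C1q chains were highest in macrophages labelled M, C1s1, C4b, C3 and Serping1 were highest in mesothelial cells and fibroblasts, Cd55 was highest in B cells and airway epithelium, and few transcripts were counted for Cfb.

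**Figure D1:**
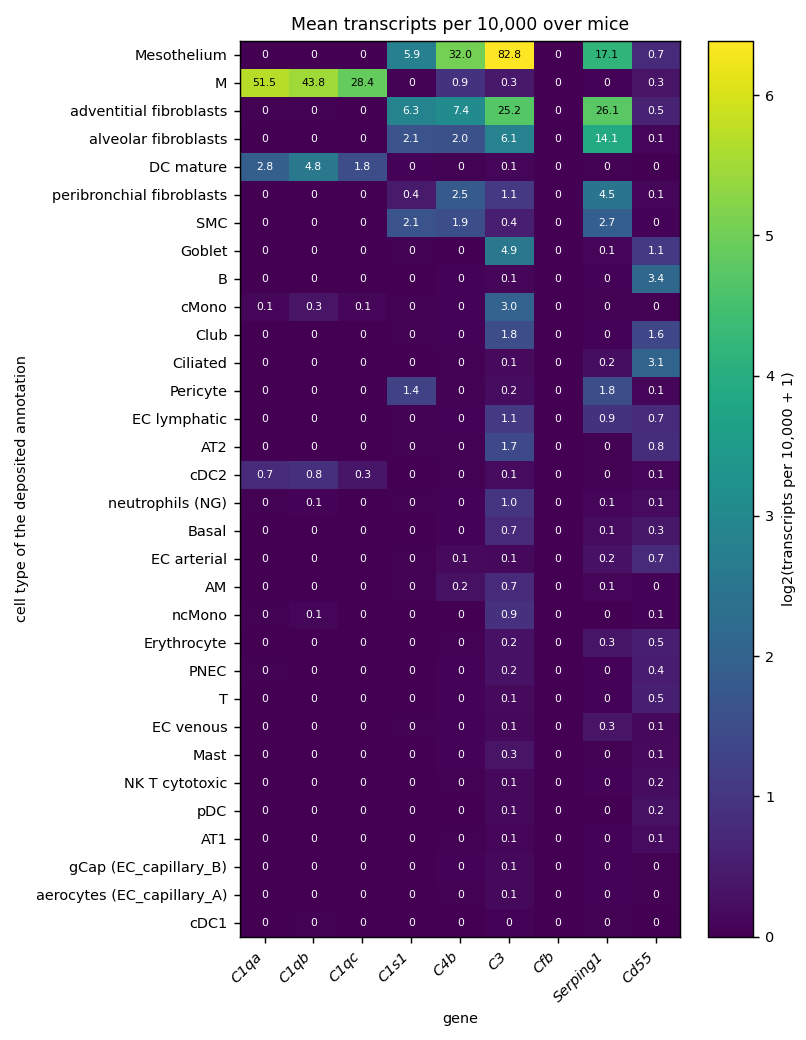
Mean transcripts per 10,000 of the 9 genes (columns) in the 32 cell types (rows), averaged over up to 8 mice. The number in each field is the level and the colour its log2 after adding 1. C3 reached 82.8 in mesothelial cells and C1qa 51.5 in macrophages labelled M.

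C1qa, C1qb and C1qc, the 3 chains that assemble into C1q, were highest in macrophages labelled M, at 51.5 ± 9.66, 43.8 ± 11.2 and 28.4 ± 4.61 transcripts per 10,000 (SD, n = 8 mice). A transcript of C1qb was found in 97.4% of these cells from CS mice and in 100% of those from RA mice. In AM the corresponding shares were 1.69% and 0.417%, at median depths of 5,087 and 5,908 UMIs a cell against 7,083 and 8,114 in macrophages labelled M. Cells annotated as mature dendritic cells came next for all 3 chains, with C1qb at 4.84 ± 5.95 (SD, n = 7), and the spread between mice there was larger than the distance to the type that followed. Of 40 mature dendritic cells, 14 held C1qb. In type 2 conventional dendritic cells (cDC2) all C1qb counts came from 3 of 127 cells. Of all C1q counts in macrophages labelled M, C1qa gave 41.6%, C1qb 36.0% and C1qc 22.3%.

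C1s1, the protease that cuts C4 and C2, was highest in adventitial fibroblasts, at 6.31 ± 1.22 transcripts per 10,000 (SD, n = 8), and reached 5.85 ± 0.835 in mesothelial cells. These first 2 types did not differ beyond their spread. Alveolar fibroblasts followed at 2.13 and smooth muscle cells at 2.11, again within their spread, then pericytes at 1.40, and all but 6 types were below 0.1. C4b was highest in mesothelial cells, at 32.0 ± 5.36 (SD, n = 8), and at 7.44 ± 2.03 in adventitial fibroblasts. Peribronchial fibroblasts (2.49), alveolar fibroblasts (1.98) and smooth muscle cells (1.87) were next and did not differ beyond their spread. The near-identical gene C4a could share reads with C4b. Of 98-base windows in the last 1,000 bases of the C4b transcript, 13.6% also occurred in C4a transcripts, and C4a itself reached at most 0.182, in mesothelial cells.

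C3 showed the highest level of any member in mesothelial cells, at 82.8 ± 9.16 transcripts per 10,000 (SD, n = 8), and all 1,132 of these cells held it. CS mice had 89.8 (C2, from 9 cells), 91.1, 87.6 and 87.3 and RA mice 82.6, 72.8, 65.0 and 86.0 in mesothelial cells. All CS values lay above all RA values. Adventitial fibroblasts followed at 25.2 ± 5.26, alveolar fibroblasts at 6.07, goblet cells at 4.86 and classical monocytes at 3.02, each step larger than the spread between mice. Club cells (1.84), AT2 cells (1.67) and peribronchial fibroblasts (1.09) came next and neighbours in this order did not differ beyond their spread. C3 was at or above 0.1 in 25 of the 32 types, more than any other member.

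Cfb was near the lower limit of the data. Its highest level was 0.0123 ± 0.0107 transcripts per 10,000 in mesothelial cells (SD, n = 8), where 28 of 1,132 cells held a transcript. After thinning to 2,000 UMIs the mesothelial level was 0.00473, and AM came first at 0.0169, where 1 cell held a transcript. In mesothelial cells of CS mice C2, C5, D2 and D5 it was 0, 0.0139, 0.0199 and 0.0236, and in RA mice F1, F3, M1 and M3 it was 0.00806, 0, 0.00512 and 0.0280. The groups overlapped, and only 50 UMIs of Cfb were counted in all cells. The annotated gene Gm20547 covers 99.4% of Cfb on the same strand, so reads that fit both genes may not have been counted for Cfb, and Gm20547 was not analysed here. The level of Cfb is therefore uncertain.

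Serping1, the inhibitor of C1r and C1s, followed the stromal pattern of its targets. It was highest in adventitial fibroblasts, at 26.1 ± 3.61 transcripts per 10,000 (SD, n = 8), then in mesothelial cells at 17.1 ± 2.51, alveolar fibroblasts at 14.1 ± 1.73 and peribronchial fibroblasts at 4.52, and each step was larger than the spread. In adventitial fibroblasts CS mice had 24.5, 23.6, 27.9 and 23.7 and RA mice 22.7, 24.0, 29.1 and 33.1. The groups overlapped.

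Cd55, which protects the cell that carries it, had a different map. B cells had 3.44 ± 1.04 transcripts per 10,000 and ciliated cells 3.15 ± 0.284 (SD, n = 8), which did not differ beyond their spread, followed by club cells at 1.58, goblet cells at 1.10 and AT2 cells at 0.793. With counts summed per mouse in place of the mean over cells, B cells had 3.01 and ciliated cells were first. In B cells CS mice had 3.69, 3.97, 2.82 and 4.53 and RA mice 1.30, 3.14, 3.66 and 4.43. The groups overlapped, and RA mouse F1 was the lowest. Of B cells, 63.3% held a Cd55 transcript in CS and 64.0% in RA, against 1.16% and 1.31% of general capillary cells at similar depths (medians of 4,149 and 3,943 against 3,938 and 3,713 UMIs). The genes Gm16083 and Gm16567 lie on the opposite strand of Cd55 and C1s1, and Gm16083 had counts of its own. The strand setting of the counting is not given in the sources used here, and mixing of reads within these pairs was not tested.

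The sources of the counted transcripts followed level and cell number together. Mesothelial cells were 2.82% of the cells and gave 74.6% of all C4b counts (mean of 8 mice, range 23.5% to 92.8%) and 63.9% of all C3 counts (21.1% to 84.9%). The lowest value of both was that of CS mouse C2, in which 9 mesothelial cells were captured. CS mice C5, D2 and D5 had 145, 132 and 141 of them, and RA mice 91 to 358. Macrophages labelled M were 0.252% of the cells and gave 85.6% of C1qa, 78.3% of C1qb and 85.2% of C1qc counts, again lowest in mouse C2, with 3 such cells. Adventitial fibroblasts gave 38.2% of Serping1 and mesothelial cells 36.2%. Ciliated cells, 8.78% of the cells, gave 52.6% of Cd55. These shares describe the mixed suspension and not the lung.

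**Figure D2:**
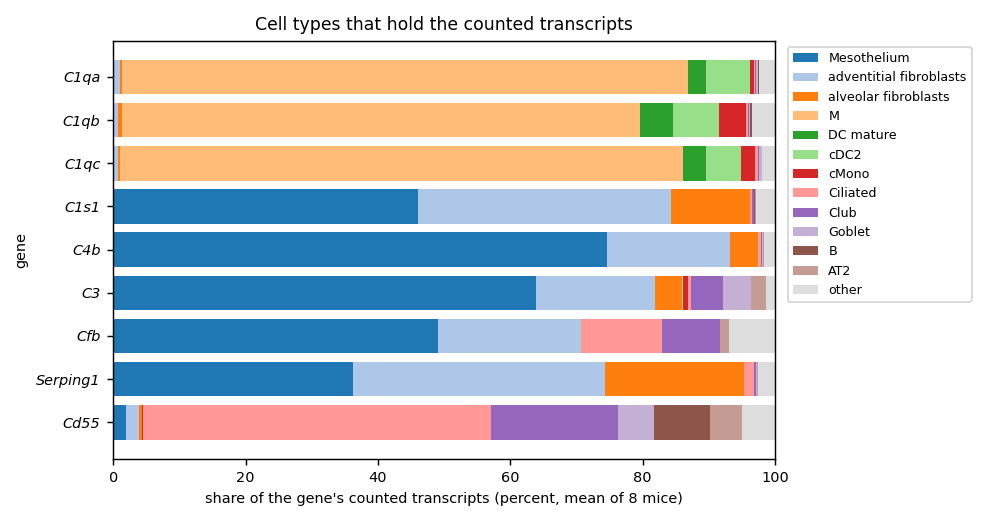
Share of the counted transcripts of each gene (rows, percent, mean of 8 mice) that lay in each cell type (colours). Mesothelial cells hold 74.6% of C4b and macrophages labelled M 85.6% of C1qa. The Cfb row rests on 50 UMIs.

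The pattern across the 32 types was compared for 8 of the 9 members, leaving out Cfb, which was not found in 10% of the cells of any type. It placed 7 of them in 2 sets and left Cd55 apart. Pearson correlations of log2(level + 0.1) over the types were 0.996 for C1qa with C1qc and 0.989 for C1qa with C1qb, and 0.935 for C1s1 with Serping1. They were 0.856 for C4b with C1s1 and 0.718 for C3 with C4b, whereas C1qa with C3 gave -0.12 and Cd55 with Serping1 0.0314. All types share the same 8 libraries, so these values are descriptions. Among all genes detected in 10% or more of cells in some type, the gene most like C1s1 was C1ra, the other protease of the first complex, at 0.955, followed by Gpr135 (0.950) and Rarres2 (0.945). Serping1 was most like Gas1 (0.950), L3hypdh (0.948) and C1ra (0.943), C4b most like Omd (0.929), Ildr2 (0.926) and Gata5 (0.922), and C3 most like Steap4 (0.799), Podn (0.781) and Mst1r (0.781). Beside the other chains, C1qa and C1qb were most like Olfr111 (0.984 and 0.962) and C1qc most like Fcrls (0.980). Cd55 was most like Gm15675 (0.920), its neighbour gene copy Cd55b (0.862) and the opposite-strand gene Gm16083 (0.851).

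The comparison of CS with RA was made in 22 cell types with at least 3 mice of 20 or more cells in each group, by limma over all genes detected in 10% or more of cells in one group or the other. Of the members, 5 were tested, in 45 pairs of gene and cell type. After adjustment within each type, 1 pair was higher in CS (C4b in adventitial fibroblasts) and 0 were lower, by limma. Over all 172,262 pairs of gene and type, 0.712% were called higher and 0.518% lower. At an unadjusted p under 0.05, 10 member pairs were higher and 1 was lower, against 8.92% and 6.3% of all pairs. The mouse values of 7 member pairs lay entirely above in CS and those of 0 entirely below, against 6.01% and 4.67% of all pairs. Of the 7, all but the pair of C3 and Serping1 in ciliated cells lay in fibroblasts or mesothelial cells. The median log2 difference was 0.05 over the 45 pairs and 0.0089 over all pairs. In the 3 fibroblast types and mesothelial cells together, 13 of 18 member pairs were higher, beside 18,499 of 36,097 pairs over all genes. The median log2 difference was 0.22 for these member pairs and 0.0029 over all genes in these types. The latter include low genes, whose folds this log scale understates. The 18 pairs come from 5 genes in the same mice, in the types where most of these genes were highest. Members were chosen with earlier results of these data known, so all these counts are descriptions.

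**Figure D3:**
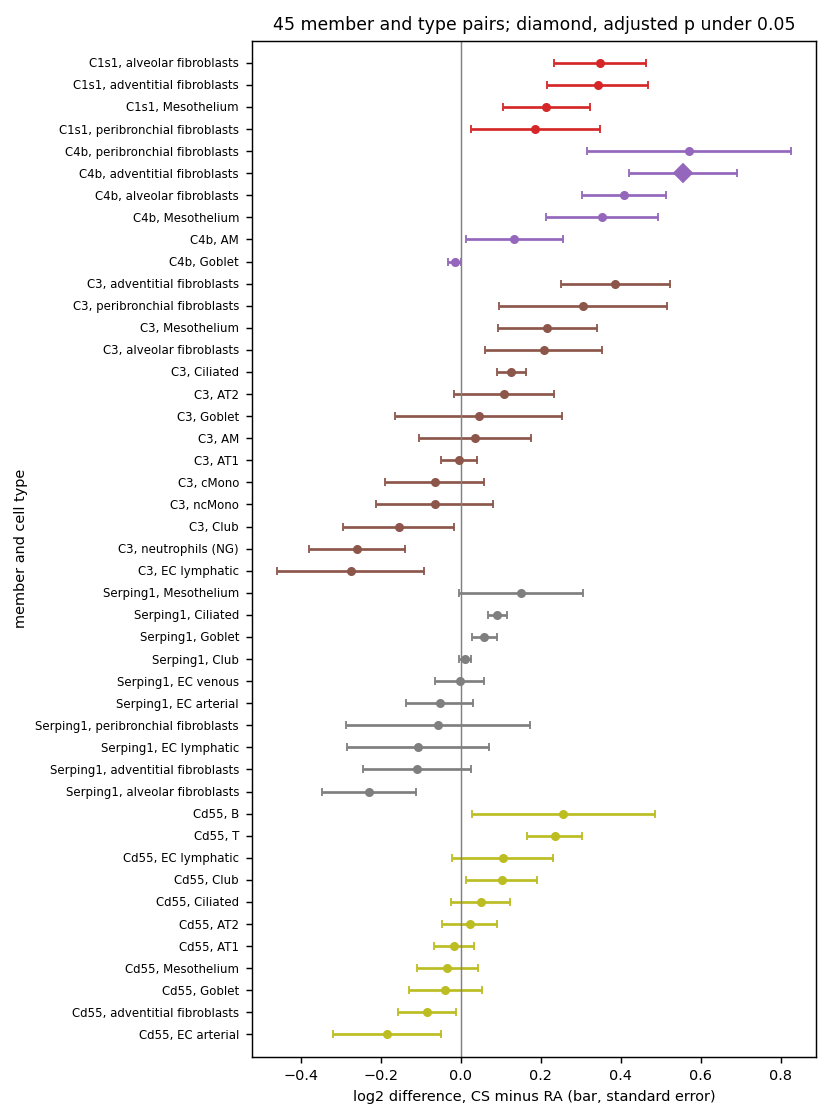
Log2 difference (CS minus RA, on the scale of log2 of transcripts per 10,000 plus 1) with its standard error for the 45 member and cell type pairs, grouped by gene. The diamond, C4b in adventitial fibroblasts at 0.56, is the pair past an adjusted p of 0.05.

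C4b, the component cut by C1s to start the classical route, was higher in adventitial fibroblasts of CS mice. Its level was 8.33, 7.40, 10.5 and 9.96 transcripts per 10,000 in CS mice C2, C5, D2 and D5 and 5.26, 5.12, 6.48 and 6.41 in RA mice F1, F3, M1 and M3. All CS values lay above all RA values. The means were 9.06 ± 1.45 and 5.82 ± 0.730 (SD, n = 4 each), a ratio of 1.56, and the log2 difference was 0.56 (standard error 0.135, adjusted p = 0.0477, limma). In this type 1.91% of all genes were called higher and 13% had an unadjusted p under 0.05 in that direction, and so did 3 of the 5 members tested. Cells with a C4b transcript made up 89.1% in CS and 81.5% in RA, and in 68.1% and 53.8% after thinning each cell to 2,000 UMIs, which left out 9 and 40 shallower cells. In B cells, which should lack it, the thinned shares were 0.629% and 0.631%. The call was lost under 6 planned settings and without any single mouse (adjusted p from 0.058 to 0.111), and with the lane as a replicate block the adjusted p was 0.132.

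Other markers moved with exposure in the same cells. The 5 adventitial markers summed to 69.99 to 90.7 transcripts per 10,000 in CS mice and to 90.9 to 111 in RA mice, without overlap. Most of the sum was Dcn, with means of 68.7 in CS and 84.4 in RA. Mean Pi16 was 4.47 in CS and 7.06 in RA, without overlap. Dcn, Cd248, Serpinf1 and Col14a1 each overlapped, and mean Col14a1 was higher in CS, at 4.77 against 4.01. The 4 mesothelial markers, all detected, summed to 0.0382 to 0.140 in CS and 0.0367 to 0.186 in RA. These sums were near 0 beside 50.1 in mesothelial cells. The 5 alveolar fibroblast markers summed to 33.0 to 42.2 in CS and 31.8 to 41.0 in RA, most of it Inmt. Among them Npnt was 1.52 to 2.75 in CS and 0.798 to 1.40 in RA. Ces1d was 0.653 to 0.928 in CS and 0.371 to 0.518 in RA, so both were higher in CS without overlap. Inmt, Tcf21 and Limch1 overlapped, and mean Tcf21 was lower in CS, at 1.45 against 1.94. Of the interstitial macrophage markers, Apoe, which fibroblasts also express, was lower in CS, at 16.3 to 27.9 against 28.1 to 35.7, and Ms4a7 and Cd163 were at 0 in all CS mice. The classical monocyte list was higher in CS, at 1.40 to 3.16 against 0.958 to 1.26, nearly all of it Plac8. The part of these markers in the C4b result was not tested.

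In alveolar fibroblasts C4b showed the same direction. CS mice had 2.11, 2.46, 2.08 and 2.98 and RA mice 1.74, 1.26, 1.80 and 1.45 transcripts per 10,000. The groups did not overlap, the ratio of means was 1.54, and the log2 difference of 0.41 (standard error 0.105) missed the threshold, with an adjusted p of 0.0681 by limma. Here 11.2% of all genes had an unadjusted p under 0.05 in that direction, as did 2 of the 4 members tested. The 5 alveolar fibroblast markers, all detected, summed to 109 to 116 in CS and 97.6 to 121 in RA, and these sums overlapped. Most of each sum was Inmt and Limch1. Npnt was higher in CS without overlap, at 16.1 to 17.5 against 6.49 to 15.6 in RA. Ces1d, Inmt, Tcf21 and Limch1 overlapped, and mean Tcf21 was lower in CS, at 5.94 against 7.88. The part of these markers in the C4b difference was not tested. Apoe was again lower in CS, at 13.3 to 22.5 against 27.8 to 30.0, and the 4 mesothelial markers were near 0, at 0.0168 to 0.0423 in CS and 0.0425 to 0.148 in RA. The difference of the C4b effect between adventitial and alveolar fibroblasts of the same mice was 0.15 (standard error 0.144, adjusted p = 0.863 by limma over 8,093 genes). It was 0.033 without CS mouse D2, 0.074 without RA mouse F1 and 0.24 without CS mouse C5. In mesothelial cells C4b was 36.1, 32.8 and 41.9 in CS mice C5, D2 and D5 and 25.9, 27.1, 27.6 and 34.2 in RA mice (log2 difference 0.35, adjusted p = 0.307). CS mouse C2, with 9 mesothelial cells at 30.8, did not enter this fit. In peribronchial fibroblasts C4b was 2.30, 4.82 and 2.89 in CS mice C5, D2 and D5 and 0.979, 1.98 and 2.88 in RA mice F1, F3 and M1 (log2 difference 0.57, adjusted p = 0.557), which was 0.31 without F1 and 0.34 without D2. The groups overlapped in both types.

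**Figure D4:**
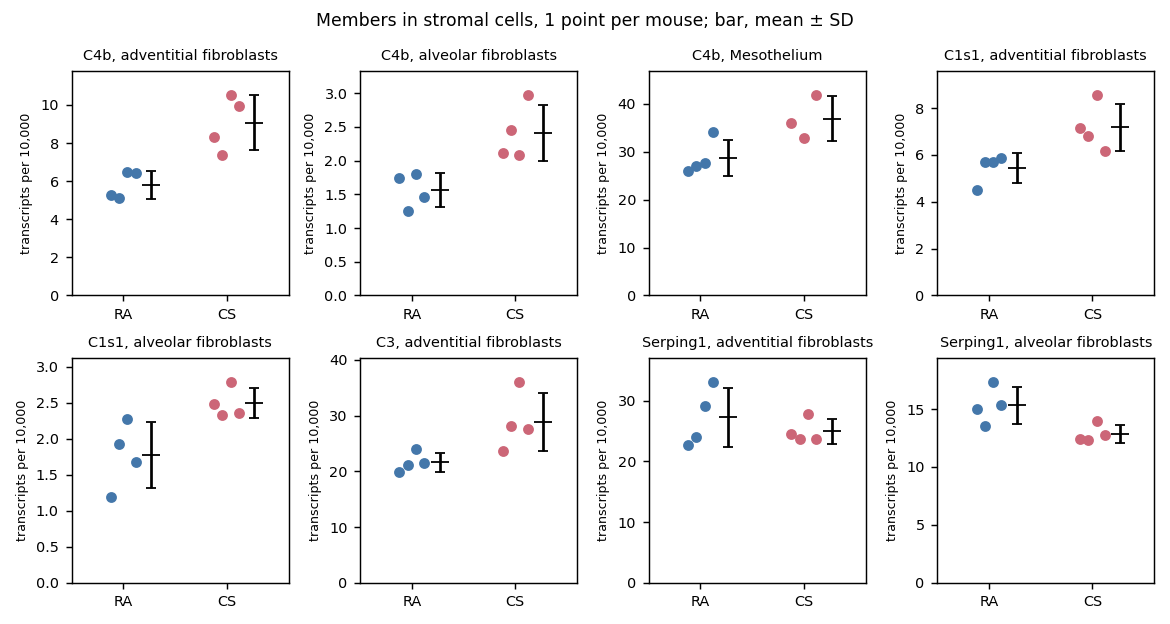
Transcripts per 10,000 of C4b, C1s1, C3 and Serping1 in fibroblasts and mesothelial cells, 1 point per mouse, with the mean and SD beside each group. All 4 CS points lie above all 4 RA points for C4b and C1s1 in adventitial and alveolar fibroblasts. Peribronchial fibroblasts, where both genes overlapped, are not drawn.

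C1s1, the protease upstream of C4b, was 7.15, 6.82, 8.57 and 6.17 transcripts per 10,000 in adventitial fibroblasts of CS mice and 4.48, 5.72, 5.70 and 5.86 in those of RA mice. The groups did not overlap, with means of 7.18 ± 1.02 and 5.44 ± 0.641 (SD, n = 4 each), and the log2 difference was 0.34 (standard error 0.127, adjusted p = 0.141, limma). In alveolar fibroblasts it was 2.49, 2.33, 2.79 and 2.36 in CS and 1.19, 1.93, 2.28 and 1.68 in RA, again without overlap (log2 difference 0.35, standard error 0.115, adjusted p = 0.117). The difference between these effects was -0.0057 (standard error 0.103). In mesothelial cells C1s1 was 5.53, 6.38 and 6.85 in CS mice and 4.97, 4.81, 5.57 and 5.64 in RA mice, with 1 CS mouse inside the RA range (log2 difference 0.21, adjusted p = 0.415). In peribronchial fibroblasts C1s1 was 0.226, 0.683 and 0.556 in CS mice C5, D2 and D5. It was 0.255, 0.466 and 0.185 in RA mice F1, F3 and M1, with overlap (log2 difference 0.19, adjusted p = 0.768, limma). None of these C1s1 differences passed the threshold.

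C3 in adventitial fibroblasts was 23.6, 28.1, 36.0 and 27.5 transcripts per 10,000 in CS mice and 19.9, 21.1, 24.0 and 21.4 in RA mice. The lowest CS mouse lay below the highest RA mouse. The log2 difference was 0.39 (standard error 0.136, adjusted p = 0.127, limma), with the CS mouse higher in 4 of 4 lanes. In mesothelial cells, with mouse C2 left out for its 9 cells, the log2 difference of C3 was 0.22 (standard error 0.125, adjusted p = 0.48), and in alveolar fibroblasts it was 0.21 (adjusted p = 0.418). Without RA mouse M1 the mesothelial difference was 0.14. In neutrophils C3 was 0.579, 0.849, 0.722 and 0.954 in CS and 1.44, 0.920, 1.32 and 0.854 in RA, and was lower in CS in 3 of 4 lanes (log2 difference -0.26, adjusted p = 0.37). In lymphatic endothelial cells it was 1.05, 0.898, 0.8288 and 0.600 in CS and 2.78, 0.836, 0.870 and 0.876 in RA (log2 difference -0.28, adjusted p = 0.646). RA mouse F1 stood alone there, and without it the log2 difference was -0.019.

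In ciliated cells C3 was 0.0904, 0.101, 0.240 and 0.205 transcripts per 10,000 in CS mice and 0.0689, 0.0708, 0.0609 and 0.0409 in RA mice, without overlap (log2 difference 0.13, standard error 0.0373, adjusted p = 0.0778, limma). The level is low, and the ratio of means was 2.64, which the log2 scale after adding 1 understates. After thinning to 2,000 UMIs a C3 transcript was left in 2.19% of ciliated cells in CS and 0.748% in RA. The shares were 2.28% and 1.52% in B cells and 1.598% and 3.23% in general capillary cells, so the RA share lay below both of these types and the CS share between them. Free RNA can give shares of this size, and its part in the difference was not tested. Ciliated Serping1 was 0.235, 0.202, 0.179 and 0.217 in CS and 0.176, 0.142, 0.125 and 0.0937 in RA, also without overlap (log2 difference 0.0914, adjusted p = 0.0576). In ciliated cells the 5 interstitial macrophage markers named above summed to 0.179 to 0.210 in CS and 0.220 to 0.380 in RA, without overlap, most of it Cx3cr1. The 4 mesothelial markers summed to 0.00399 to 0.0284 in CS and 0.0174 to 0.0659 in RA, the 5 alveolar fibroblast markers to 12.05 to 14.8 and 14.5 to 16.7, and the 3 ciliated cell markers to 35.7 to 38.0 and 34.2 to 40.1. The part of these markers in the C3 and Serping1 differences was not tested.

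No difference of either regulator passed the threshold. Serping1 in alveolar fibroblasts was 12.4, 12.3, 14.0 and 12.8 transcripts per 10,000 in CS mice and 15.0, 13.6, 17.3 and 15.4 in RA mice, with 1 CS mouse inside the RA range. The log2 difference was -0.23 (standard error 0.117, adjusted p = 0.264, limma), and in adventitial fibroblasts it was -0.11 (standard error 0.135, adjusted p = 0.663). The latter was -0.014 without RA mouse M3, -0.073 without M1 and -0.19 without F1. In goblet cells Serping1 was 0.132, 0.0564, 0.0610 and 0.119 in CS and 0.0205, 0.0385, 0.101 and 0.0330 in RA, and the groups overlapped (adjusted p = 0.441). Of 10 types tested for Serping1, 4 were higher and 6 lower in CS, and none passed adjustment. Cd55 in T cells was 0.731, 0.645, 0.462 and 0.568 in CS mice and 0.364, 0.265, 0.340 and 0.474 in RA mice, with 1 overlap (log2 difference 0.23, standard error 0.0693, adjusted p = 0.147). A Cd55 transcript was left in 10.2% of T cells in CS and 6.17% in RA after thinning, above the 0.405% and 0.680% of general capillary cells. In B cells, where Cd55 was highest, the log2 difference was 0.26 (standard error 0.228, adjusted p = 0.602), and without RA mouse F1 it was -0.0016. In ciliated cells Cd55 was 3.01, 2.96, 3.33 and 3.57 in CS and 2.79, 2.85, 3.24 and 3.42 in RA, with overlap (log2 difference 0.050, adjusted p = 0.716). Between AT2 and club cells of the same mice the CS effect differed by -0.080 for Cd55 (standard error 0.0964, adjusted p = 0.957) and by 0.26 for C3 (standard error 0.123, adjusted p = 0.867, over 8,639 genes).

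The C1q chains could not be tested under the same rule, because 1 mouse alone, F1, had 20 or more macrophages labelled M. Their values therefore come from a comparison without a minimum of cells, added after seeing the data. C1qb was 31.3, 35.4, 48.2 and 26.3 transcripts per 10,000 in CS mice C2, C5, D2 and D5, from 3, 14, 14 and 7 cells, and 48.9, 54.9, 50.7 and 55.1 in RA mice F1, F3, M1 and M3, from 29, 15, 11 and 8 cells. All RA values lay above all CS values, with means of 35.3 ± 9.36 in CS and 52.4 ± 3.09 in RA (SD, n = 4 each), a ratio of 0.674. A two-sided exact permutation test gave p = 0.0286, its smallest possible value with 4 mice against 4. By limma the log2 difference was -0.59 (standard error 0.254, adjusted p = 0.816 over 8,227 genes), so C1qb did not pass. In these cells 2.75% of all genes had an unadjusted p under 0.05 and were lower in CS, and for 1.77% the CS mice lay entirely below. Without mouse C2 the log2 difference was -0.55, and with quantile scaling it was -0.29.

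Other markers also varied between the mice in macrophages labelled M. The 5 interstitial macrophage markers named above summed to 65.6 to 162 in CS and 105 to 200 in RA, most of it Apoe, and the 4 general macrophage markers to 25.2 to 35.3 and 23.8 to 27.1. Of these genes Folr2 was 0 to 0.787 in CS and 0.886 to 3.22 in RA, without overlap. Ptprc, which encodes CD45, was 4.23 to 10.3 in CS and 2.54 to 4.47 in RA. The classical monocyte markers summed to 1.0099 to 13.3 in CS and 3.62 to 8.89 in RA, and the alveolar fibroblast markers to 0 to 11.5 and 0.638 to 1.013. The groups overlapped in each of these sums and in Ptprc, and the part of these markers in the C1q values was not tested.

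C1qa was 39.7, 50.6, 65.1 and 35.5 in CS and 52.2, 57.2, 56.3 and 55.4 in RA, and C1qc was 20.9, 26.5, 34.9 and 23.3 in CS and 29.2, 30.0, 30.1 and 32.2 in RA. Both overlapped, with CS mouse D2 the highest of all 8 for both chains, and log2 differences of -0.25 and -0.22 (adjusted p = 0.868 and 0.89). Without CS mouse D2 these were -0.40 and -0.36, without D5 -0.12 and -0.17, without C2 -0.17 and -0.12, and with quantile scaling -0.043 and -0.027. Thinning moved C1qc to -0.35. The spread between CS mice was larger than that between RA mice for all 3 chains. C1qb made up 31.4% to 36.2% of all C1q counts of a CS mouse and 36.3% to 39.0% of those of an RA mouse (exact two-sided permutation p = 0.0286), a comparison chosen after the values were seen. The share of C1qa was 41.7% to 44.9% in CS and 38.6% to 41.6% in RA, and that of C1qc overlapped.

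**Figure D5:**
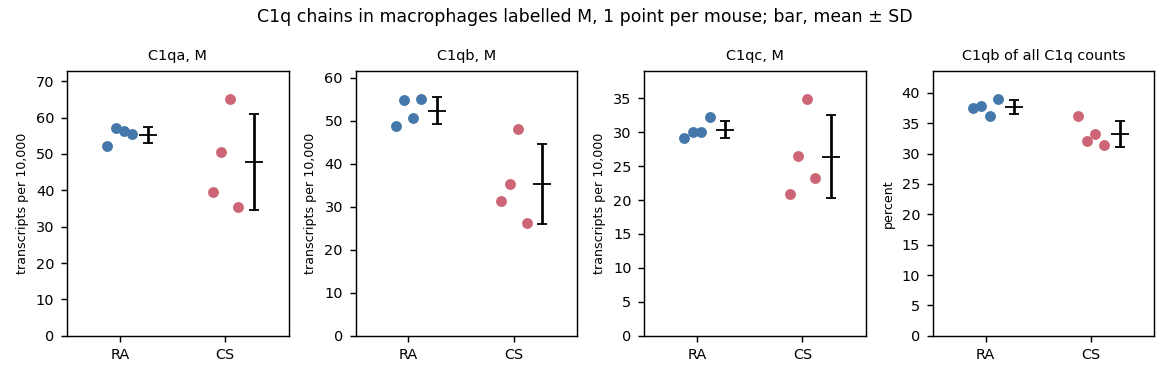
Transcripts per 10,000 of C1qa, C1qb and C1qc in macrophages labelled M and, on the right, C1qb as percent of all C1q counts, 1 point per mouse with the mean and SD beside each group. For C1qb all 4 CS points lie below all 4 RA points.

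Of the 46 other complement genes listed by role, 45 had a row in the files and Itgam was not analysed here. They gave 154 pairs of gene and type over 28 genes, of which 1 was called higher in CS and 0 lower by limma, beside 0.712% and 0.518% of all pairs. At an unadjusted p under 0.05, 16 were higher and 10 lower, beside 8.92% and 6.3% of all pairs, so these counts were near the background. The called gene was Cd93, a receptor once taken for a C1q receptor, in AM, where 0.238% of all genes were called higher. It was 1.002, 0.372, 0.752 and 1.15 transcripts per 10,000 in CS mice and 0.304, 0.270, 0 and 0.118 in RA mice, without overlap (log2 difference 0.62, standard error 0.135, adjusted p = 0.0442). The call was lost in 7 of the 8 fits with 1 mouse left out, all but that without CS mouse C5 (adjusted p from 0.0157 to 0.162). Cd93 was found in 9.58% of AM from RA mice, under the 10% detection filter, so it was tested only through its share in CS. With no detection filter Cd93 also lost its call (adjusted p = 0.409, limma). Its highest level was in general capillary cells, at 11.5 ± 1.001 (SD, n = 8). The endothelial markers Pecam1 and Cldn5 summed to 1.48 to 2.21 in AM of CS mice and to 0.709 to 2.20 in those of RA mice, and their part in the Cd93 result was not tested.

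C1ra, the partner of C1s1, was highest in mesothelial cells (5.29). The collectin Colec12, listed with the start of the cascade, was highest in alveolar fibroblasts (8.75). The role of start genes had 23 pairs, of which 16 were higher in CS, beside 93,434 of the 172,262 pairs over all genes. Of the 23, 5 were higher and 0 lower at an unadjusted p under 0.05, beside 8.92% and 6.3% of all pairs, and none was called. The 5 were Colec12 in adventitial fibroblasts, venous endothelial cells and AM, C1ra in goblet cells and C4a in mesothelial cells, so most were Colec12. Among terminal components, Hc, which encodes C5, was highest in AT2 cells at 13.2 ± 2.02 and C7 in alveolar fibroblasts at 9.95 ± 3.86 (SD, n = 8). Of 10 pairs of terminal components 9 were higher in CS and 1 lower, beside the same 93,434 of 172,262 pairs higher over all genes. Their median log2 difference was 0.11. At an unadjusted p under 0.05, 3 were higher and 0 lower, beside 8.92% and 6.3% of all pairs, and none was called. The 3 were C6 in AT2 cells and alveolar fibroblasts and Hc in goblet cells. Hc in goblet cells had means of 0.0978 in CS and 0.0464 in RA. C6 in alveolar fibroblasts (17.9% of cells in CS, 9.47% in RA) and Hc in ciliated cells (13.3% and 6.29%) passed the detection filter only through CS. In AT2 cells mean Hc was 13.2 in both groups. Properdin (Cfp) was highest in mature dendritic cells at 2.88, and factor D (Cfd) did not exceed 0.0026 in any type. Of the inhibitors, Csmd1 reached 28.6 in peribronchial fibroblasts and clusterin (Clu) 19.6 in mesothelial cells, and of 86 inhibitor pairs 45 were higher and 41 lower in CS.

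Of 30 receptor pairs, 23 were lower in CS, beside 78,828 of the 172,262 pairs over all genes, with a median log2 difference of -0.089. At an unadjusted p under 0.05, 3 were higher and 8 lower, beside 8.92% and 6.3% of all pairs, and the called pair, Cd93 in AM, was higher. Of the higher pairs, Cd93 in AM and Itgax in neutrophils (11.8% of cells in CS, 6.51% in RA) passed the detection filter only through CS. Of the lower pairs, C5ar2 in AM (8.99% in CS, 20.8% in RA) passed only through RA. C5ar1, the receptor of the C5 fragment C5a, was highest in neutrophils, at 8.02, 8.31, 8.53 and 7.64 in CS mice and 14.0, 10.9, 9.87 and 11.2 in RA mice. The groups did not overlap, and the log2 difference of -0.44 (standard error 0.140) did not pass adjustment (adjusted p = 0.22, limma). In AM C5ar1 was 2.63, 1.82, 1.67 and 1.86 in CS and 3.42, 3.03, 3.97 and 2.88 in RA, without overlap (log2 difference -0.53, adjusted p = 0.122). This receptor was described in AM after its values were seen. In macrophages labelled M, its next-highest type, C5ar1 overlapped, at 13.6, 7.13, 6.15 and 2.99 in CS and 9.85, 9.96, 9.80 and 4.75 in RA. In classical monocytes and cells labelled mast cells it was lower in CS without overlap (adjusted p = 0.349 and 0.572, limma).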

How the data were processed

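Lungs of 4 CS and 4 RA mice were profiled with 10x Genomics 3' v3 chemistry, 1 library per mouse and 1 CS with 1 RA library in each of 4 sequencing lanes. The authors aligned reads with STAR 2.7.3a (STARsolo) to GRCm38.p6, removed free RNA with SoupX and annotated cell types by clustering. The matrix that the authors deposited holds expected counts of UMIs after this removal, so values need not be whole and were not scaled. SoupX can lower counts of genes that are abundant in free RNA. Cell types are those of the deposited annotation, cells it labels as multiplets were left out, and no further doublet caller was run.

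Each cell was scaled to 10,000, and values were averaged per mouse and type. Differences used limma 3.58.1 (R 4.3.3) on log2(mean + 1), with a trend, in types with at least 3 mice per group of 20 or more cells, for genes in at least 10% of cells of either group. P values were adjusted by Benjamini-Hochberg over all genes of a type, threshold 0.05. No count model was used, since the unit of analysis is a mean over cells. For a single value, all 70 assignments of mice to groups gave an exact permutation p, two-sided. A fold on this log scale understates low genes.

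The members and lists were chosen with earlier results of these data known. Values by mouse are given for each member in its highest type, for each pair past the threshold, and for the 12 further pairs of smallest p. Of other complement genes, those called and the 1 or 2 highest of each role were named. Alternatives were the pseudocount, detection filters, summed counts, scaling, lane as a replicate block, sex, cell minimum, thinning to 2,000 UMIs and leaving out each mouse. Gene positions are from GENCODE M21 and promoters from RefSeq, with no sequence shown for members that had none in the table. 1 marker gene is not reported here.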

Additional observations from a re-analysis of the deposited data

Results flagged for a closer look

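Among 38 groups of 4 mice in the pairs described by mouse, 2 had 1 mouse far from the other 3, as judged by the gap over the range, and chance alone gives about 1.9. C1s1 in adventitial fibroblasts of RA mouse F1 was 4.48 transcripts per 10,000, and the other 3 RA mice lay between 5.70 and 5.86. C3 in lymphatic endothelial cells of RA mouse F1 was 2.78, and the other 3 RA mice lay between 0.836 and 0.876. Without mouse F1 the log2 difference of C1s1 was 0.27 and that of C3 -0.019.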

How the results depend on the processing

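The number of member pairs called higher in CS was 1, and it was 3 with a 25% detection filter (C4b in both main fibroblast types and Serping1 in ciliated cells) and 3 with the sex read from Xist as a term, added after seeing the data. It was 0 with no detection filter, with summed counts, with median centring, with thinning and with the lane as a replicate block, and 0 to 1 with 1 mouse left out. No member or listed pair was called lower under any setting. The log2 difference of C4b in adventitial fibroblasts lost its call at 0.556 with no filter (adjusted p = 0.165), the lane block (0.132) and the labelled sex as a term (0.0555), at 0.509 with summed counts (0.0626), at 0.548 with median centring (0.0503) and at 0.493 with thinning (0.0803), and it ran from 0.486 to 0.639 with 1 mouse left out (0.058 to 0.111). With the labelled sex as a term, C3 in ciliated cells was called in its place. The count for the other complement genes was 1, was 2 with the 25% filter, 0 with a pseudocount of 0.1, no filter, at least 50 cells and thinning, and 0 to 1 with 1 mouse left out. Cd93 in AM lost its call at 1.85 with the pseudocount of 0.1 (0.0543), 0.62 with no filter (0.409) and 0.555 with thinning (0.245), and ran from 0.533 to 0.748 with 1 mouse left out (0.0157 to 0.162). The signs of 3 results turned. Cd55 in B cells, at 0.26, ran from -0.0016 to 0.411 with 1 mouse left out, the difference of the Cd55 effect between AT2 and club cells from -0.142 to 0.0206, and that of C1s1 between fibroblast types from -0.0707 to 0.0374, with 0.00725 under summed counts and 0.0168 under quantile scaling. The causes were not tested. The lanes share 1 CS and 1 RA mouse each, and the labels do not say that a lane marks a shared litter or day. Precision is low for Cfb, with 50 UMIs in all, and for C1q in the 3 cells of mouse C2.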
